A study of Mus musculus with 6 samples.

Results

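The mitochondrial ribosomal protein genes were taken as the rows of the deposited table whose gene name starts with Mrpl or Mrps and a digit, with pseudogenes left out. The rule found 77 of the 34745 genes in the table: 48 named for the large subunit (Mrpl) and 29 for the small subunit (Mrps). RNA had been sequenced from 6 mouse cultures of spermatogonial stem cells, which are the germ cells of the testis that renew themselves and give rise to sperm. All cultures came from a DBA/2J X c57BL/6J cross at postnatal day 6 and were at passages 15 to 20. In 3 samples the cells were untreated, and in 3 samples bisphenol A (BPA), a plastic monomer known to bind oestrogen receptors, was in the medium at 100 µM for about 4 days. The labels name no vehicle for the untreated cultures and do not say whether the samples of a group came from separate animals or cultures, so p-values measure the spread between these samples, which may be technical.

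Mitochondria keep their own ribosome, which translates the few proteins encoded by the mitochondrial genome, all of them parts of the respiratory chain and ATP synthase. Its ribosomal RNAs are made inside the organelle. All of its proteins are encoded in the nucleus, made on cytosolic ribosomes and imported. The large subunit joins amino acids at the peptidyl transferase centre and feeds the new chain into an exit tunnel, and the small subunit holds the messenger RNA at the decoding centre. Some of the proteins descend from bacterial ribosomal proteins, and others were added after the bacterial ancestor of mitochondria was taken up.

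The promoters of 4 members are shown because these genes carry the results below. Mrpl20 and Mrpl42 were the members whose lower level under BPA passed the test whichever library was left out, and Mrps9 and Mrps11 were the small subunit members with the smallest adjusted p. Each window runs from 250 bases before to 50 bases after the start of the gene in RefSeq (GRCm38.p6), 5′ to 3′ in the direction of transcription. The windows are chr4:155802628-155802927 on the plus strand for Mrpl20, chr10:95501900-95502199 on the minus strand for Mrpl42, chr1:42850983-42851282 on the plus strand for Mrps9 and chr7:78782881-78783180 on the plus strand for Mrps11. Capitals mark matches, on either strand, to the E-box CACGTG that MYC and related factors bind, the YY1 motif AAGATGGC, and the NRF1 motif (GCGC, any base, TGCGC). NRF1 and YY1 are transcription factors with known targets among nuclear genes for mitochondrial proteins.
Mrpl20: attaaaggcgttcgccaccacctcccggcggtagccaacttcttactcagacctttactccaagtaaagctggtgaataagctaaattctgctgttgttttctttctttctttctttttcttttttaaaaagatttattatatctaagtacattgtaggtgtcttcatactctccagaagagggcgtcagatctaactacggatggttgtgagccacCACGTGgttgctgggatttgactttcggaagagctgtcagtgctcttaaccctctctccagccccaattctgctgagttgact
Mrpl42: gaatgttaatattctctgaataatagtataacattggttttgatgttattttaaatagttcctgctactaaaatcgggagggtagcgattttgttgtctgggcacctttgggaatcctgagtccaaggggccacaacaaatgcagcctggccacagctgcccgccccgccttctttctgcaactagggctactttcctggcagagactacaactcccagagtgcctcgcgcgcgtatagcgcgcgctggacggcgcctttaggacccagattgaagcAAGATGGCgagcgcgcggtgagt
Mrps9: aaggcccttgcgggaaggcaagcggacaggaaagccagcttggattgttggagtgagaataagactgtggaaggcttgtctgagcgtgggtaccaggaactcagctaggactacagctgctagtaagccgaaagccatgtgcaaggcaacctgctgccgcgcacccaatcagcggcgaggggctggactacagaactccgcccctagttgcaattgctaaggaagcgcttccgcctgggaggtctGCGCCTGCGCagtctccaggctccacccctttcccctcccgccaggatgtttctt
Mrps11: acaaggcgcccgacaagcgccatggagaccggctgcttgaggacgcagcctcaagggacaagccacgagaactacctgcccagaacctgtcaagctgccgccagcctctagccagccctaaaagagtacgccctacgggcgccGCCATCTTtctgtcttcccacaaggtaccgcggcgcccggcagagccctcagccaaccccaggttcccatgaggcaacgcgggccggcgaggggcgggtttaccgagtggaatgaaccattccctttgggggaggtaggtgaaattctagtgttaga
The E-box of Mrpl20 starts 33 bases before the gene start, the YY1 match of Mrps11 107 bases before it, and the NRF1 match of Mrps9 5 bases before it. The YY1 match of Mrpl42 lies 27 bases after the start. Whether any of these matches lies in a repeat copy was not tested.

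Library totals ran from 13453280 to 19183912 counts untreated and from 14232872 to 22286517 under BPA, so the depths overlapped but the deepest libraries were BPA ones. Per library, 13638 to 15273 genes were counted untreated and 14899 to 16013 under BPA. Pairs of replicates differed by more than counting noise, with a chi-square per degree of freedom of 18.9 to 25.4 among untreated libraries and of 22 to 84.5 among BPA libraries, highest for both pairs with BPA replicate 2. All 11 markers of spermatogonia and germ cells were above 1 CPM (a gene's counts relative to the library total after trimmed-mean scaling). They summed to 2086 to 2138 CPM untreated and 1604 to 2097 CPM under BPA, where 3 of them were lower and 1 was higher by the test below. The 7 Sertoli cell markers summed to 45.9 to 58.0 CPM untreated and 119 to 155 CPM under BPA, with 2 higher and Rhox5 at 0. Clu and Sox9 were the most abundant of them, and 3 were under 1 CPM. The 7 fibroblast markers, 2 of them under 1 CPM, summed to 83.5 to 118 and 51.8 to 85.8 CPM. The 4 macrophage markers summed to 49.0 to 54.0 and 26.3 to 43.1 CPM. Of these 4, 3 were under 1 CPM and 1 had enough counts to be tested, so their sum says little about macrophages. The 4 Leydig cell markers stayed at or below 1.31 CPM in sum, with Hsd3b1 and Insl3 at 0. The part of these other cells in the results was not tested. In such bulk samples, fewer cells of a type and less RNA per cell cannot be told apart.

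Under BPA the transcripts of the mitochondrial ribosome were shifted downwards, with no member rising past the threshold. Of the 77 genes, 75 had enough counts to be tested, 47 of the large and 28 of the small subunit. By edgeR's quasi-likelihood test at a Benjamini-Hochberg adjusted p below 0.05, 17 of the 75 were lower under BPA, which is 22.7% of them. Across all 13287 tested genes 6.28% were lower and 4.37% were higher. No member was higher by edgeR, DESeq2 or limma-voom. At an unadjusted p below 0.05, edgeR gave 31 members lower and 5 higher (Mrps2, Mrpl33, Mrpl9, Mrpl19 and Mrps34). The median log2 fold change of the members was -0.37, with quartiles of -0.70 and 0.04, against 0.10 over all tested genes, with quartiles of -0.38 and 0.60. The estimate was below 0 for 54 members and above 0 for 21.

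In 33 members all BPA libraries lay below all untreated libraries, and in 7 all lay above. The same held for 15.7% and 15.6% of all tested genes. The members were measured more precisely than the average gene, with a median standard error of 0.23 against 0.37 on the log2 scale, so the share passing the test is set beside a background of less precise genes.

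The number that passed depended on single libraries. It was 2 without untreated replicate 1, 3 without untreated replicate 2, 7 without untreated replicate 3, 2 without BPA replicate 1, 3 without BPA replicate 3 and 25 without BPA replicate 2. The share of members that was lower, against that of all tested genes, was 2.67% against 2.06% without untreated replicate 1. It was 4% against 2.31% without untreated replicate 2 and 9.33% against 3.44% without untreated replicate 3. It was 2.67% against 2.52% without BPA replicate 1, 33.3% against 11.7% without BPA replicate 2 and 4.05% against 3.08% without BPA replicate 3. Except without BPA replicate 2, these shares lay closer together than with all libraries. The median of the members stayed between -0.38 and -0.31 in these 6 fits. The untreated and BPA libraries also separated as wholes. The median deviation of the tested members from their mean log2 level was 0.26, 0.20 and 0.13 in the untreated libraries, in the order of their replicate numbers, and -0.21, -0.17 and -0.15 in the BPA libraries, and over all genes it stayed within -0.03 and 0.06.

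**Figure D1:**
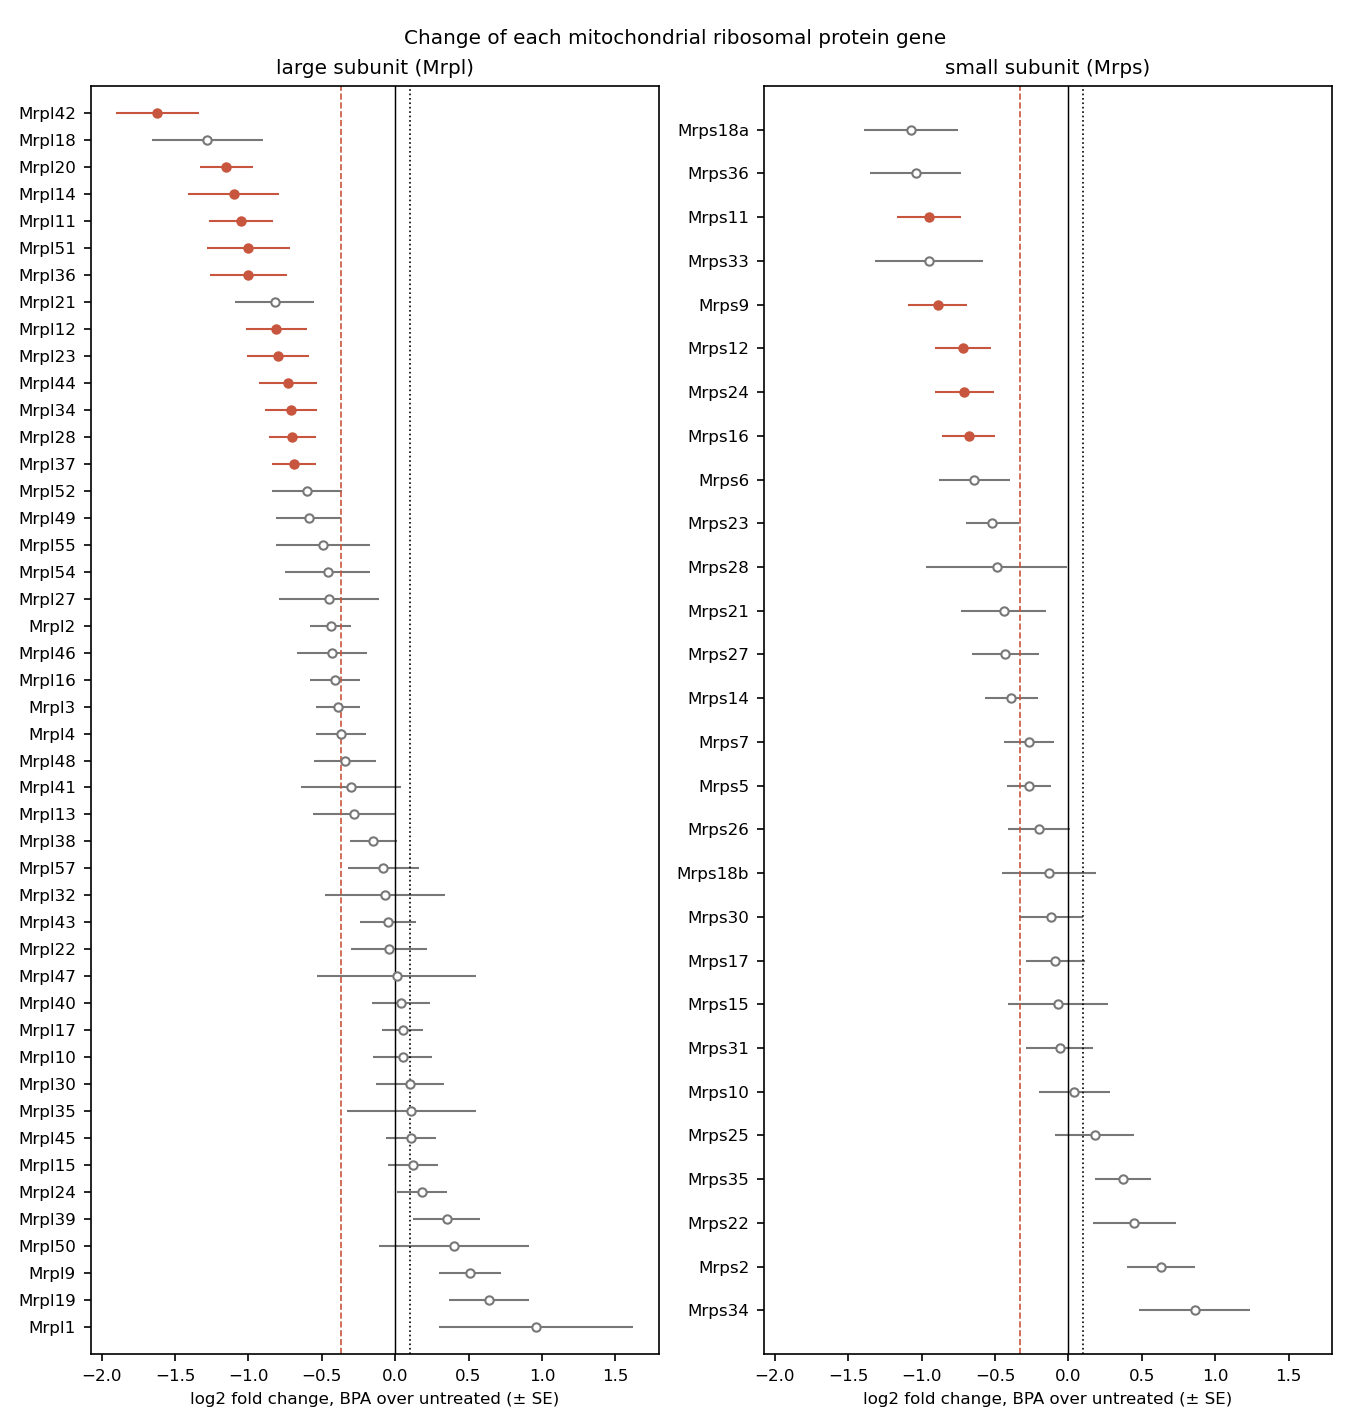
Log2 fold change (BPA over untreated, x axis) with its standard error for each tested large subunit (left) and small subunit (right) gene; filled points passed edgeR's test, the dashed line is the median of the subunit, the dotted line the median of all tested genes (0.10), and Mrpl33, with almost no counts, is left out. The 17 filled points all lie at -0.68 or below, and the open points run from -1.28 to 0.96.

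Among the large subunit genes, 12 of 47 were lower (25.5%) and the median log2 fold change was -0.37. Mrpl20 had the smallest adjusted p of all members. Its protein is the counterpart of a bacterial protein that binds ribosomal RNA early in the assembly of the large subunit. Mrpl20 (ENSMUSG00000029066, chromosome 4, 155802878 to 155809975, plus strand, mm10) was at 248.4, 218.7 and 197.1 CPM untreated, in the order of the replicate numbers as for every gene below, and at 86.55, 119.0 and 93.1 CPM under BPA. The highest BPA library was far below the lowest untreated one. The log2 fold change was -1.15 ± 0.18 (SE, n = 3 per group), with an edgeR adjusted p of 0.00171. It kept the call without each library in turn, with edgeR adjusted p-values from 6.3e-05 to 0.0251.

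Mrpl42 had the largest fall among the members that passed. It encodes a protein found in mitochondrial but not bacterial ribosomes, which was once assigned to the small subunit. The levels of Mrpl42 (ENSMUSG00000062981, chromosome 10, 95480806 to 95501927, minus strand) were 28.9, 40.3 and 34.0 CPM untreated and 10.9, 12.1 and 10.5 CPM under BPA. The BPA libraries lay close together and well below the untreated ones. Its log2 fold change was -1.62 ± 0.28 (SE, n = 3 per group; edgeR adjusted p = 0.00339), and the adjusted p was 0.00139 to 0.0275 without each library in turn.

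Mrpl11 and Mrpl12 belong to the stalk region, where translation factors are recruited to the large subunit. Mrpl11 was at 97.4, 74.5 and 87.0 CPM untreated and at 33.2, 49.8 and 41.8 CPM under BPA, a log2 fold change of -1.05 ± 0.22 (SE, edgeR adjusted p = 0.00988). Mrpl12 was at 141.6, 129.3 and 90.6 CPM untreated and at 79.6, 65.0 and 62.3 CPM under BPA, a change of -0.81 ± 0.21 (SE, edgeR adjusted p = 0.0286). The groups did not overlap for either gene, but untreated replicate 3 of Mrpl12 lay much nearer to the BPA libraries than the other untreated ones. The call for Mrpl11 was lost without untreated replicate 1 or BPA replicate 1, and that for Mrpl12 in 4 of the 6 fits that leave out a library.

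The large subunit genes that passed with the most counts, not divided by length, were Mrpl28 and Mrpl37. Mrpl28 was at 376.3, 358.1 and 389.1 CPM untreated and at 202.4, 277.6 and 211.4 CPM under BPA. Mrpl37, which encodes a mitochondria-specific protein, was at 296.0, 294.5 and 313.2 CPM untreated and at 175.3, 220.2 and 165.7 CPM under BPA. In both genes the untreated libraries agreed closely and BPA replicate 2 was the highest of the BPA libraries. Their log2 fold changes were -0.70 ± 0.16 and -0.69 ± 0.15 (SE), with edgeR adjusted p-values of 0.0157 and 0.0160.

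Mrpl34, Mrpl36 and Mrpl23 are counterparts of small bacterial proteins of the large subunit, the last of them at the mouth of the exit tunnel. Mrpl34 was at 97.9, 81.1 and 89.8 CPM untreated and at 53.5, 58.5 and 52.1 CPM under BPA (log2 fold change -0.71 ± 0.18, SE). Mrpl36 was at 34.4, 35.6 and 48.1 CPM untreated and at 21.8, 18.3 and 19.0 CPM under BPA (-0.997 ± 0.26). Mrpl23 was at 58.2, 64.8 and 64.8 CPM untreated and at 37.0, 39.4 and 31.7 CPM under BPA (-0.80 ± 0.21). The edgeR adjusted p-values of the 3 genes lay between 0.0278 and 0.0292, and none of their groups overlapped. The other large subunit genes that passed were Mrpl44, whose protein has a ribonuclease III-like fold, Mrpl14, whose protein lies at the face between the subunits, and Mrpl51. Their log2 fold changes were -0.73, -1.101 and -1, with edgeR adjusted p-values of 0.0346, 0.0383 and 0.0423. In Mrpl51 BPA replicate 1 was far below the other BPA libraries, at 17.9 CPM against 36.6 and 39.1 CPM.

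Among the small subunit genes, 5 of 28 were lower (17.9%) and the median log2 fold change was -0.33. Mrps9 encodes a protein of the head of the small subunit. It was at 65.9, 82.9 and 66.5 CPM untreated and at 38.2, 38.3 and 39.9 CPM under BPA, a log2 fold change of -0.89 ± 0.20 (SE, n = 3 per group; edgeR adjusted p = 0.0160). Mrps11 encodes a protein of the platform. It was at 55.3, 77.2 and 58.5 CPM untreated and at 30.2, 34.1 and 34.7 CPM under BPA, a change of -0.95 ± 0.22 (SE, edgeR adjusted p = 0.0187). In both genes untreated replicate 2 was the highest library, and the others of its group lay close together above all BPA libraries.

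Mrps12, whose protein lies at the decoding centre, was at 148.5, 116.9 and 102.6 CPM untreated and at 77.5, 76.1 and 70.1 CPM under BPA (log2 fold change -0.72 ± 0.19, SE; edgeR adjusted p = 0.0298). Mrps16 and Mrps24, the latter the counterpart of a bacterial protein at the entry of the messenger RNA channel, changed by -0.68 and -0.71, with edgeR adjusted p-values of 0.0354 and 0.0383. The BPA libraries of Mrps24 were nearly equal, at 49.5 to 50.8 CPM. Every one of the 5 small subunit calls was lost in at least 4 of the 6 fits that leave out a library.

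**Figure D2:**
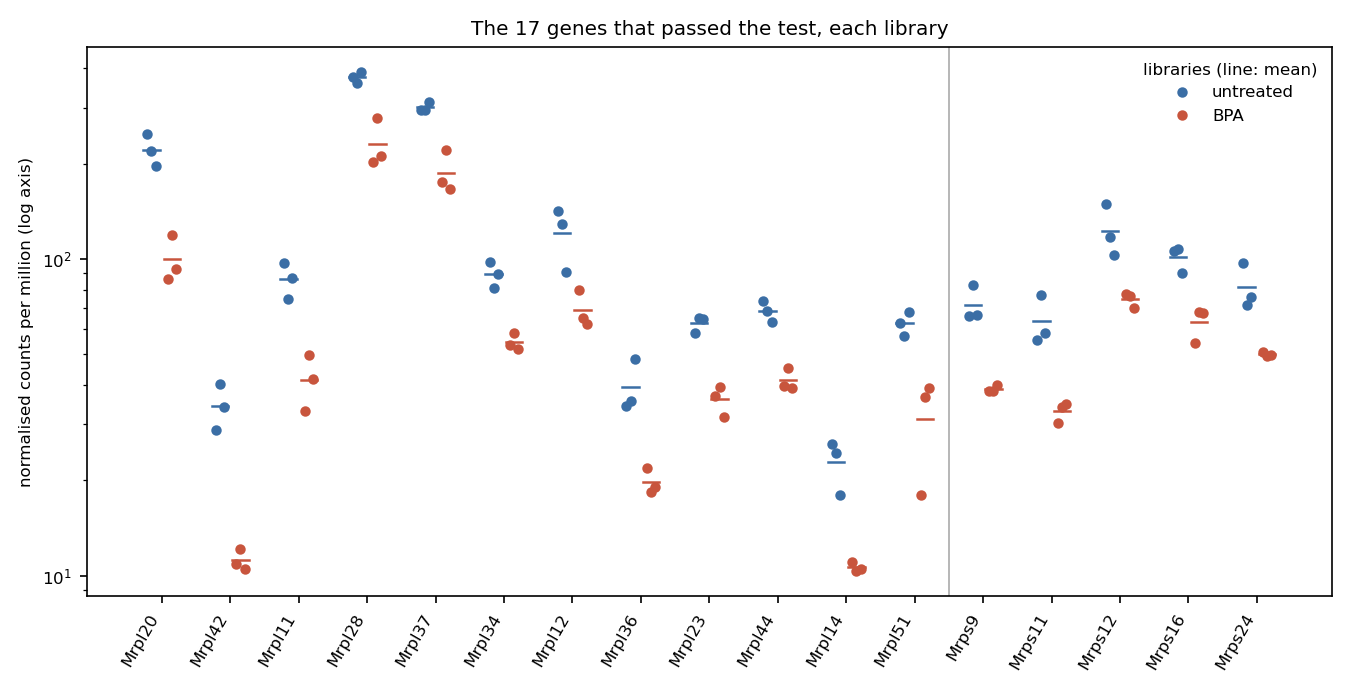
Normalised CPM (log axis) of the 17 members that passed edgeR's test in each untreated and BPA library, with the group mean as a line; large subunit genes are left of the grey line and small subunit genes right of it. In each gene the 3 BPA libraries lie below the 3 untreated ones, by a wide margin in Mrpl20 and Mrpl42 and by a narrow one in Mrpl12.

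Another 16 members had all BPA libraries below all untreated ones without passing the test, with log2 fold changes from -1.28 to -0.27. Those nearest to the threshold were Mrps36 (-1.04 ± 0.31, SE; edgeR adjusted p = 0.0511), Mrps18a (-1.07 ± 0.32; 0.0512) and Mrpl18 (-1.28 ± 0.38; 0.0529). Their mean levels, 21.6, 41.0 and 20.2 CPM untreated, were low for members, and their standard errors were larger than those of most that passed. Each of these 3 passed with DESeq2 and with limma-voom. The names of some members and their places differ. Mrps18a and Mrps30 encode proteins of the large subunit, and the Mrps36 protein is known as a part of the ketoglutarate dehydrogenase complex. Mrps30 was at 66.8, 62.0 and 86.9 CPM untreated and at 64.3, 79.5 and 54.5 CPM under BPA, so that the groups overlapped (-0.12 ± 0.22, SE).

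The 3 Mrps18 genes are paralogs. Mrps18b was at 63.2, 31.9 and 47.2 CPM untreated and at 25.5, 56.3 and 48.0 CPM under BPA, a spread within groups wider than the difference between them (-0.13 ± 0.32, SE), and 30.5% of its exon bases are shared with another gene. Mrps18c had counts of 0, 14 and 0 untreated and of 0, 3 and 5 under BPA and was not tested. The other member not tested was Mrpl53, which had 0 counts in every library. Of its exon bases, 88.0% are shared with the genes Ccdc142os and Gm42688, and the part of this overlap in its counts was not tested. Mrpl33 was tested on almost no reads, with counts of 3, 1 and 0 untreated and of 14, 14 and 67 under BPA (log2 fold change 4.00 ± 1.60, SE; edgeR adjusted p = 0.140). Its locus in the table, chromosome 5, 31596935 to 31664384, is wider than the RefSeq gene.

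The 7 members with all BPA libraries above all untreated ones were Mrpl33, Mrps2, Mrpl9, Mrpl19, Mrps34, Mrps35 and Mrpl24, and none passed. Mrps2, for a protein of the small subunit, was at 34.9, 46.4 and 37.9 CPM untreated and at 48.3, 75.03 and 61.4 CPM under BPA (0.63 ± 0.23, SE; edgeR adjusted p = 0.107). With counts scaled by library size alone it passed as higher. Mrpl9 was at 39.8, 42.1 and 39.6 CPM untreated and at 65.3, 59.7 and 48.4 CPM under BPA (0.51 ± 0.21; 0.148). Mrps34 rests on 6.53 to 9.89 CPM untreated and 11.8 to 19.4 CPM under BPA, with 77.8% of its exon bases shared with the genes Mapk8ip3 and Nme3. The remaining 35 members had overlapping groups, with log2 fold changes from -0.64 to 0.96. Among these Mrpl17 was one of the most precisely measured, at 214.6, 217.1 and 213.5 CPM untreated and at 225.4, 237.4 and 203.7 CPM under BPA (0.05 ± 0.14, SE).

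The subunits were compared as sums, as a description with no test. The large subunit genes took 0.425%, 0.420% and 0.420% of all gene counts untreated and 0.3545%, 0.3505% and 0.3615% under BPA. The small subunit genes took 0.169%, 0.163% and 0.164% untreated and 0.139%, 0.137% and 0.154% under BPA. Both shares were lower in every BPA library than in any untreated one. The summed FPKM (the deposited values per gene length and library total) of the small over the large subunit was 0.375, 0.371 and 0.373 untreated and 0.346, 0.373 and 0.394 under BPA. Its mean was 0.373 ± 0.0024 (SD, n = 3) untreated and 0.371 ± 0.0241 (SD, n = 3) under BPA, a log2 ratio of -0.01, so the groups overlapped and the BPA libraries were far more spread. Whether the subunits differ in the share of genes lowered, 25.5% against 17.9%, was not tested. With members placed by structure, 12 of 49 large and 5 of 25 small subunit genes were lower, with medians of -0.37 and -0.27.

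**Figure D3:**
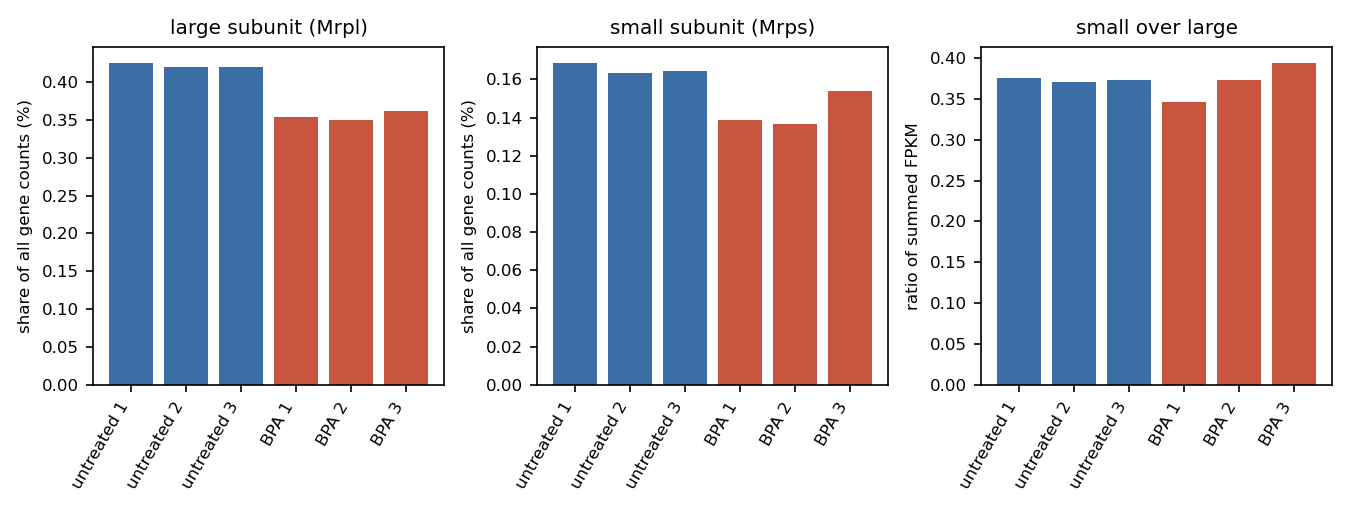
Share of all gene counts (percent) taken by large (left) and small (centre) subunit genes, and the ratio of their summed FPKM, small over large (right), with 1 bar for each library (blue untreated, red BPA). Both shares are lower in all 3 BPA libraries, and the ratio runs from 0.346 to 0.394 under BPA around the 0.371 to 0.375 of the untreated libraries.

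Members were also grouped by a list of those with a bacterial counterpart. Of the 45 tested members on it, 13 were lower, with a median log2 fold change of -0.39. Of the 30 other tested members, taken as mitochondria-specific, 4 were lower, with a median of -0.25. Of the Mrps18 paralogs the list held Mrps18c only, so Mrps18a and Mrps18b were counted with the others. This grouping was drawn up after the values had been seen, and the difference was not tested. The annotated exons of 32 members overlap another gene, 3 of them over most of their length. Whether reads were shared between such genes was not tested. Among the 45 tested members with no overlap, 10 were lower and the median was -0.37.

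Levels between genes were compared as CPM per kilobase of exon, from the union of a gene's exons in GENCODE vM21. Over the tested members they ran from 0.011 to 271.6 untreated, with a median of 26.4 for the large and 13.7 for the small subunit genes. Under BPA these medians were 21.4 and 13.9. A median level can fall on different genes in each group, so it does not measure change within genes. Of the 28 tested small subunit genes, 22 had a negative log2 fold change and 6 a positive one, with a median of -0.33. Mrpl2, whose protein lies near the peptidyl transferase centre, and Mrpl28 were the highest, at 271.6 and 271.4 untreated and 200.1 and 167.0 under BPA. Mrpl4, a protein near the exit tunnel, was highest by mean FPKM but ranked 4 on this scale, at 146.5 and 113.2 CPM per kilobase. The order of the genes depends on the length used. Mrpl42 ranked 22 by FPKM and 65 by exon union, and Mrps16 ranked 3 and 26, because the gene lengths behind the deposited FPKM differ from the exon union, by a ratio of 0.154 to 2.73 with a median of 1.23. The fold change of a gene between the groups stays the same whichever length its levels are divided by.

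Gene length moved with the response. Over all tested genes, split into 10 bins of equal size by exon union length, the median log2 fold change ran from -0.34 in the bin of the shortest genes to 0.41 in that of the longest, and 13.4% of the shortest were lower. The members are short, with a median of 2533 bases against 4290 for all tested genes, and 1664 bases for the 17 that were lower. Of the 22 members in the shortest bin, 7 were lower, and their median was -0.56. Set against genes of their own length, 54 of the 75 members were below the median of their bin. Across members the log2 fold change correlated with log2 length at Pearson's r = 0.36 and Spearman's rho = 0.42 (n = 75), and across all genes at 0.22 and 0.27 (n = 13273), given as a description.

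Library-specific trends in GC content and gene length were then removed, with the gene length behind the deposited FPKM. In that fit 15 members were lower and none was higher, 8 of them among the 17. That is 20% of the members, against 7.925% of all tested genes in the same fit, where 1053 genes were lower and 1052 higher. The median of the members became -0.19, against 0.08 for all genes, and 51 members were negative. Mrpl20 (-1.20), Mrpl42 (-1.38), Mrpl11, Mrpl37, Mrps9, Mrps11, Mrpl44 and Mrpl51 still passed. Mrpl28, Mrpl34, Mrpl12, Mrpl36, Mrpl23, Mrps12, Mrps16, Mrps24 and Mrpl14 did not. Mrpl34, the shortest of these by exon union at 607 bases, moved most, from -0.71 to -0.04 (edgeR adjusted p = 0.907). Mrps18a, Mrps5, Mrps33, Mrpl48, Mrpl3, Mrpl18 and Mrps36 passed under the correction and had not passed before it. So 9 of the 17 calls were not kept under the correction, while 54 and then 51 of the 75 estimates were negative. Which calls were kept depended on the length used. With exon union length in the correction instead, Mrps16 and Mrpl23 passed (edgeR adjusted p = 0.00863 and 0.0218). Mrps11 and Mrpl44 then did not (0.0632 and 0.097).

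**Figure D4:**
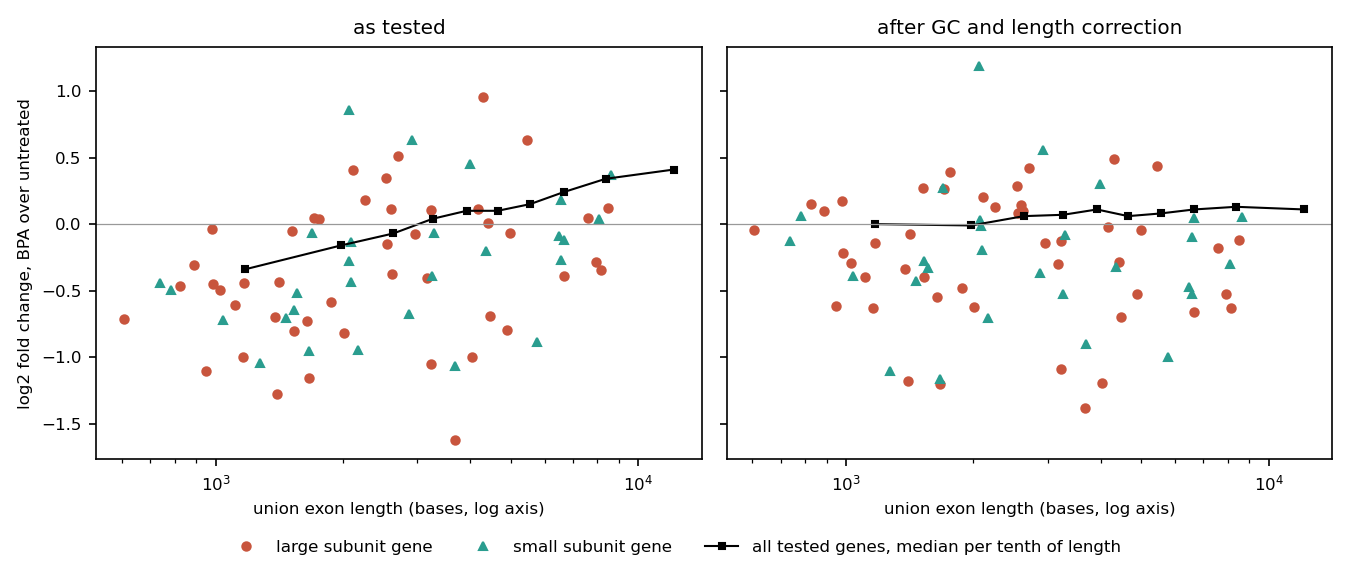
Log2 fold change (BPA over untreated) of each tested member except Mrpl33 against its union exon length (bases, log axis). Values are as tested (left) and after the GC and length correction (right), which used the gene length behind the deposited FPKM. Squares are the medians of all tested genes in 10 bins of length. The medians rise from -0.34 to 0.41 on the left and lie between -0.01 and 0.13 on the right, where Mrpl20 and Mrpl42 are still below -1.

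Of the 77 members, 68 matched a RefSeq promoter window, and 3 of these had several windows, of which the first listed was used. Each motif was searched on both strands. The NRF1 motif was in 19.1% of the member windows against 4.78% of 27025 windows of the same length, the ETS motif CCGGAAG, bound by GABP, in 35.3% against 9.12%, and the YY1 motif AAGATGGC in 17.6% against 2.88%. The E-box CACGTG was in 7.35% against 7.24% and the CCAAT box, bound by NF-Y, in 39.7% against 37.9%. TGATGCAA, a composite motif of ATF4 and C/EBP, was in none of the 68 and in 0.929% of all windows. Among the 17 members that were lower, 6 held the YY1 motif, against 6 of the 49 tested members that did not pass. The E-box was in 3 and in 1, the NRF1 motif in 4 and in 9, and the ETS motif in 4 and in 18. These are counts of letters in the windows, with no test of a difference, and matches inside repeats were not set apart.

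Many members start close to another gene on the opposite strand. A protein-coding neighbour started within 1000 bases of 33 members, and 29 of these neighbours were tested. Of them 4 were lower (Ncapd2, Fau, Psma2 and Mrps11) and 2 were higher (Ppp1r10 and Rab6a), and their median log2 fold change was -0.19. Of the 7 lower members with such a neighbour, only Mrpl51 had one that passed as lower. This was Ncapd2, a condensin subunit that starts 100 bases away (-0.55 ± 0.15, SE, edgeR adjusted p = 0.0402). The neighbours of these 7 members had a median log2 fold change of -0.43, and only Tmem63b among them was above 0. Mrps11 and Mrpl46, both members, start 412 bases apart, with changes of -0.95 and -0.43. Mrpl36 and the complex I gene Ndufs6 start 29 bases apart, with changes of -0.997 and -0.67, the latter with an edgeR adjusted p of 0.181. Other pairs were further apart. Mrpl14 fell by 1.101 on the log2 scale beside Tmem63b at 0.24, and Mrps12 by 0.72 beside Sars2, the mitochondrial seryl-tRNA synthetase gene, at -0.04. Mrpl32 was at -0.07 beside the proteasome gene Psma2 at -1.24, and Mrps18b at -0.13 beside Ppp1r10 at 1.14. Differences within pairs were not tested.

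**Figure D5:**
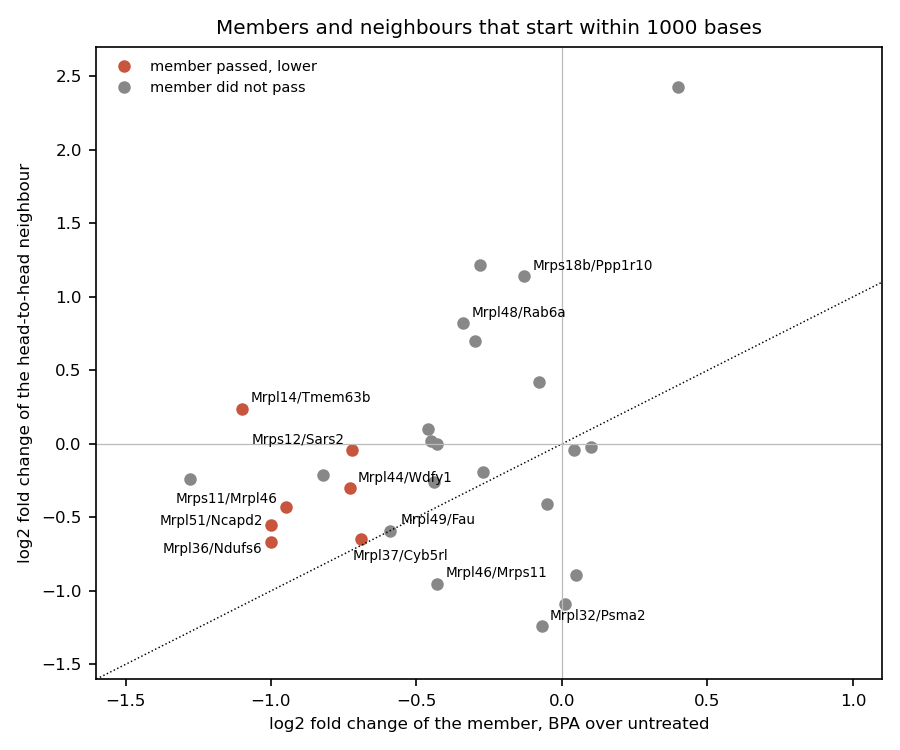
Log2 fold change (BPA over untreated) of each tested member (x axis) against that of its head-to-head neighbour within 1000 bases (y axis); red points are members that were lower by edgeR's test, and the dotted line marks equal change. Mrpl37/Cyb5rl and Mrpl49/Fau lie near the dotted line, and Mrpl14/Tmem63b, Mrpl48/Rab6a and Mrps18b/Ppp1r10 lie on opposite sides of 0; Mrps11 and Mrpl46 appear once on each axis.

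Genes that work with the mitochondrial ribosome were read from lists drawn up from textbook knowledge. Of 6 subunit genes that carry other names, 2 were lower. Aurkaip1 was at 200.9, 208.5 and 207.8 CPM untreated and at 116.5, 119.4 and 115.5 CPM under BPA (-0.81 ± 0.15, SE; edgeR adjusted p = 0.00457). Ict1, a large subunit protein with peptide release activity, changed by -0.85 ± 0.20 (edgeR adjusted p = 0.0199). Dap3, of the small subunit, was at 165.6, 179.1 and 170.0 CPM untreated and at 208.6, 230.9 and 216.6 CPM under BPA, with all BPA libraries above the untreated ones, but did not pass (0.35 ± 0.14; 0.148).

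Of 26 tested genes for assembly of the ribosome and modification of its RNA, Rbfa, a small subunit assembly factor, was the one that passed, at -0.59 ± 0.15 (SE, edgeR adjusted p = 0.0237), and the median of the list was 0.08. Among 14 translation and insertion factors 1 was lower and 1 was higher. Tufm, the elongation factor that delivers aminoacyl-tRNA, was at 579.8, 606.4 and 617.5 CPM untreated and at 283.2, 380.7 and 283.7 CPM under BPA (-0.93 ± 0.15; edgeR adjusted p = 0.00271). Gfm2, which splits the ribosome into subunits after termination, was at 22.3, 18.8 and 30.2 CPM untreated and at 44.4, 45.3 and 46.1 CPM under BPA (0.93 ± 0.25; 0.0346). The factors around the ribosome therefore did not all move with its proteins. None of 5 genes of mitochondrial transcription passed with edgeR, DESeq2 or limma-voom, and none had an unadjusted edgeR p below 0.05. The most abundant of them were Polrmt, the mitochondrial RNA polymerase, at 0.25 ± 0.21, and Tfam at 0.72 ± 0.38. The mitochondrial ribosomal RNAs were not analysed here.

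Of 12 factors known to control genes for mitochondrial proteins, 3 were higher, all from the integrated stress response. Atf4 was at 60.05, 46.1 and 61.1 CPM untreated and at 750.1, 808.9 and 787.0 CPM under BPA (3.81 ± 0.17, SE; edgeR adjusted p = 1.2e-07), and Atf5 and Ddit3 rose by 3.07 and 3.10 on the log2 scale. Nrf1 was at 0.22 ± 0.19, Gabpa at 0.49 ± 0.51 and Yy1 at 0.40 ± 0.31, and none of these 3 passed, while no NF-Y gene was in the list. Ppargc1a, a coactivator of mitochondrial genes, had 0 counts in all libraries. Among 11 mitochondrial chaperones and proteases Hspa9 was the one that passed, at 120.1, 111.5 and 148.0 CPM untreated and 436.5, 306.4 and 549.5 CPM under BPA (1.77 ± 0.21; edgeR adjusted p = 3.7e-04). Clpp and Lonp1, proteases of the matrix, were at -0.59 ± 0.18 and -0.50 ± 0.15 and just missed the threshold, with edgeR adjusted p-values of 0.0532 and 0.0568. Afg3l2, a protease of the inner membrane, missed it as narrowly in the other direction, at 0.58 ± 0.18 (edgeR adjusted p = 0.0570).

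For comparison, 13 of 80 cytosolic ribosomal protein genes were lower and 5 were higher, with a median log2 fold change of -0.17. Of 44 genes for complex I subunits and assembly factors (Nduf), 12 were lower and 0 higher, with a median of -0.52. The members lay between them, with 17 of 75 lower and a median of -0.37. Like the complex I genes, they had none higher. Differences between these groups of genes were not tested.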

How the data were processed

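RNA was measured in 3 untreated and 3 BPA-treated samples, and the code that ends each sample's title gave its columns. The deposited table holds, per gene, the authors' raw counts and FPKM. The submitters' processing notes name TopHat2 2.0.9, HTSeq and mm10, and per the labels' protocols the libraries came from version 2 of the TruSeq RNA kit, which does not mark strand. How HTSeq was set, and with which annotation, is not given in the sources used here. All deposited FPKM equal count over gene length and column total, to within 0.00304%, and were used for levels and the subunit ratio only. All tests used the counts.

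After filterByExpr, 13287 genes were scaled with TMM (trimmed mean of M-values) and fitted together by edgeR 4.0.16 in R 4.3.3, with no block. Adjusted p-values (Benjamini-Hochberg) below 0.05 were called. The standard error is the log2 fold change over the square root of F. In a simulated comparison of 13287 genes, 200 were changed. Of these, 23% of the 2-fold and 65% of the 4-fold changes were found by edgeR, and 5 of 93 calls were false. DESeq2 1.42.0 recovered 34% and 71%, with 39 of 144 calls false. The simulation changed fewer genes than the 1415 called in these data and drew them from all tested genes. It therefore does not give the recovery for the members. Exon unions, GC content, overlaps and neighbours came from GENCODE vM21, where all 77 members were found, 58 with the same locus. The GC and length correction subtracts a lowess trend (span 0.3) per library, with the gene length behind the deposited FPKM. Promoters came from RefSeq (GRCm38.p6).

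Named genes were all members that passed, those with the highest and lowest FPKM, untested members, members with misleading names or paralogs, and up to 4 passing genes per list, or the 2 most abundant where none passed. The members and lists were chosen with earlier results of these data known, and others named were chosen after their values were seen. Alternatives were DESeq2, limma 3.58.1 (voom), other scalings and filters, a threshold of 0.01, a replicate block, the GC and length correction, and leaving out each library. A correction by exon union and the ratio by exon union were added after the data were seen.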

Additional observations from a re-analysis of the deposited data

How the results depend on the processing

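The median of the members was negative under every alternative run. Calls over all genes were mostly lower as tested and nearly even with library size, the correction and exon union length. The log2 ratio of small over large, -0.01 with overlapping groups, was 0.04 by summed CPM. Library size as the scale moved the median of all genes from 0.10 to 0.21 and the split of calls over all genes from 835 lower and 580 higher to 786 and 831. The median of the members was then -0.27, with 13 lower and 1 higher (Mrps2, of the small subunit). It was -0.32 with limma-voom, -0.19 with the GC and length correction, -0.24 with that correction and the replicate block, and -0.19 with GC and exon union length, where 12 were lower and 2 higher (Mrps2 and Mrps34), 3 of the small subunit being lower. At a threshold of 0.01, 3 members were lower, 3 of the large and 0 of the small subunit. That is 4% of the tested members, against 2.42% of all tested genes that were lower. With DESeq2, 9 small subunit members were lower. Among the 45 members without exon overlap, 10 were lower, 7 of the large and 3 of the small subunit. Without the most abundant member of each subunit, the log2 ratio of small over large was 0.07.

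Leaving out each library gave 2 to 25 members lower and 0 to 1 higher (Mrps22), 2 to 16 of the large and 0 to 9 of the small subunit lower, medians of -0.38 to -0.31 and log2 subunit ratios of -0.06 to 0.04. Over all genes it gave 444 to 2807 calls, 282 to 1600 lower and 162 to 1207 higher. DESeq2 called 2166 genes, 938 of them higher, and a threshold of 0.01 left 477, with 322 lower and 155 higher. Higher calls numbered 927 without the filter, 1052 with the correction, 1045 with it and the block, and 1032 with exon union length.

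Of the lists, other subunits had 1 call at 0.01 and 1 with exon union length, 3 with library size (2 lower, 1 higher), and 1 to 2 without each library. Assembly genes had 3 with DESeq2, 2 with library size, 0 at 0.01, 2 with the correction, with or without the block, 3 with exon union length and 0 to 2 without each library. Translation factors had 1 at 0.01 and 1 with each correction, and 1 to 4 without each library. Transcription genes had 0 to 1 and controlling factors 3 to 5 without each library. Chaperones and proteases had 4 with DESeq2 and with upper quartile scaling, 3 with limma-voom, DESeq2 size factors, library size, no filter and the replicate block, 2 with the correction, with or without the block, and 1 to 6 without each library. The cause of these differences was not tested.

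With the replicate block 19 members were lower, including all 17, and Mrps18a and Mrpl18 passed as well. The labels do not say whether the numbers pair the samples. Deviations of same-numbered samples correlated at -0.02, 0.08 and 0.11, and those of samples with different numbers at -0.12 to 0.05. Untreated replicates 2 and 3 correlated best with the BPA sample of the same number, and untreated replicate 1 with BPA replicate 2. Values this small do not settle whether the samples are paired. The median coefficient of variation between replicates was 0.2145 for the members and 0.3311 for all genes.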
